A study of Mus musculus with 2 samples.

Results

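Mrc1 and Ccl8 macrophages are cells of the mouse aorta that carry RNA of the macrophage core genes together with Mrc1, Ccl8, Ccl12, Negr1, Clec4b1 and Fcgr4. Membership was set barcode by barcode from UMIs, the molecular tags that mark single captured RNA molecules. A barcode needed at least 1000 UMIs, at most 10% mitochondrial UMIs and a UMI in at least 4 of the 9 macrophage genes C1qa, C1qb, C1qc, Csf1r, Cd68, Fcer1g, Adgre1, Ms4a7 and Lyz2. It then needed UMIs of at least 2 of the 6 named genes, and of more of them than of a foamy set (Trem2, Gpnmb, Zmynd15, Itgax, Atp6v0d2, Syngr1) and a Chil3 set (which includes Chil3, F10, Cxcl3, Ly6i and Mmp19). The rule found 5398 members among 28040 macrophages and 70127 barcodes. The members were thus chosen by their UMIs of these genes, so levels of the rule genes, and differences from other macrophages in the same libraries, are descriptions.

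The study asked what loss of the phosphatase CD45 (gene Ptprc) from endothelial cells does to the atherosclerotic aorta. Both groups were ApoE-/- mice on the C57BL/6 background fed a Western diet. The WT library came from mice with only that background, and the EC-iCD45KO library from mice in which tamoxifen induced deletion of CD45 in endothelial cells. The Cre driver, the age of the mice, the number of animals pooled and the use of tamoxifen in the WT mice are not given in the sources used here. Aortic cells were released with collagenases and Liberase, and cells bound by CD31 beads went into 10x Genomics libraries. Each group had 1 library, so no difference between the groups could be tested, and every interval covers counting error only (95%).

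Macrophages that live in the vessel wall long-term are known to take up debris and mannosylated proteins, and many carry the mannose receptor CD206, encoded by Mrc1. Other wall macrophages descend from blood monocytes, present antigen on MHC class II or fill with lipid as foam cells. Ccl8 and Ccl12 encode secreted chemokines of the monocyte chemoattractant family, Fcgr4 an activating receptor for IgG, Clec4b1 a C-type lectin and Negr1 an adhesion molecule best known from neurons.

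The promoters of 4 rule genes are shown because Ccl8 and Ccl12 are neighbours on chromosome 11 whose levels went opposite ways between the libraries, and because Clec4b1 and Fcgr4 share a motif. Each window is the 250 bases before the gene's start, from RefSeq on GRCm38.p6, and all 6 rule genes matched an entry. Capitals mark matches, on both strands, to the PU.1 core GAGGAA (on the other strand TTCCTC) and to the interferon response core (2 runs of GAAA with any 2 bases between, or TTTC on the other strand).
Ccl8, chr11:82114935-82115184, plus strand: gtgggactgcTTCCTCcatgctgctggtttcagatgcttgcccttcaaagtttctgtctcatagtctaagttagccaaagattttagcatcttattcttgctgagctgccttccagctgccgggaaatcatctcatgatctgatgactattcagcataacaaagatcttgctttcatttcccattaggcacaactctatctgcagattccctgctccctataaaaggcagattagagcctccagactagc
Ccl12, chr11:82101595-82101844, plus strand: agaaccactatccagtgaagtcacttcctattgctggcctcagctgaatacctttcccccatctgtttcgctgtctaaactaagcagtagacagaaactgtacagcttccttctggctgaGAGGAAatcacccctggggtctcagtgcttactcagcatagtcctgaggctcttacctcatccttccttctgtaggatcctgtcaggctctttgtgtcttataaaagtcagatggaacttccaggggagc
Clec4b1, chr6:123049712-123049961, plus strand: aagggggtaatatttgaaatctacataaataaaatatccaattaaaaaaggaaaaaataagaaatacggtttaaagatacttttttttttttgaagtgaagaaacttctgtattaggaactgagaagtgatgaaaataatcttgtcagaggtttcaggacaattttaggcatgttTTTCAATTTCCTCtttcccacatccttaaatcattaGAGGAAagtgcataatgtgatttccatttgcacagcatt
Fcgr4, chr1:171018676-171018925, plus strand: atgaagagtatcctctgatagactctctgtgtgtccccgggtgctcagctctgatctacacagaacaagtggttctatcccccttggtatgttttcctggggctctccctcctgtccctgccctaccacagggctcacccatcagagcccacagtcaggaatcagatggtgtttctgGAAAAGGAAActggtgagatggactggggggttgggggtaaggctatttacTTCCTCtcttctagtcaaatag
PU.1 is the transcription factor that macrophage genes depend on broadly. Its core was in the windows of all 6 rule genes and in 23.3% of 32851 mouse promoter windows of this length. The interferon response core was in the Clec4b1 and Fcgr4 windows and in 2.98% of promoter windows. In Clec4b1 it overlaps a PU.1 core. Neither the AP-1 site TGAGTCA (4.46% of windows) nor the Maf core TGCTGAC (3.81%) was in any of the 6. A match is a run of letters and not a shown binding site.

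The members numbered 2022 in the WT library and 3376 in the EC-iCD45KO library. They made up 15.2% of WT macrophages (Clopper-Pearson interval 14.6 to 15.8) and 22.9% of EC-iCD45KO macrophages (22.3 to 23.6). The difference was 7.74 percentage points (Newcombe interval 6.83 to 8.65). Of all barcodes past the UMI and mitochondrial steps, 6.82% and 17.4% were members. The macrophage step itself took 44.9% of 29659 WT and 75.8% of 19417 EC-iCD45KO barcodes, and the bead selection sets which cells enter these totals. Among macrophages that fell into 1 of the 3 classes, members were 40.2% in WT and 43.7% in EC-iCD45KO, a difference of 3.56 points (1.8 to 5.3). The foamy class held 2785 and 3760 cells and the Chil3 class 224 and 581. A further 376 and 933 macrophages had tied scores, and 7908 and 6075 had under 2 genes of each set.

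Depth and mixed RNA differed between the libraries in ways that touch most results. The members' median depth was 2498 UMIs in WT and 3200 in EC-iCD45KO. The 9 macrophage genes gave a median of 1.41% of a member's UMIs in WT and 2.32% in EC-iCD45KO. At least 3 of 42 markers of endothelial, smooth muscle, fibroblast, T or NK and B or plasma cells were present in 75.3% of WT members and 60.1% of EC-iCD45KO members. B and plasma markers (8 of 8 detected in both libraries) summed to 2368 CPM in WT members and 191 CPM in EC-iCD45KO members, where CPM is a gene's share of the UMIs summed over the cells, scaled to a total of 1000000. T and NK markers summed to 311 and 47.6 CPM, smooth muscle markers to 1144 and 1945, fibroblast markers to 1645 and 2041, endothelial markers to 235 and 188, and neutrophil markers to 115 and 319. Scrublet at its own threshold marked 20 of 29659 WT cells (0.0674%) and 0 of 19417 EC-iCD45KO cells, so it had not worked and no doublets were removed. The libraries shared 340 barcode sequences, none of them a member in both. A stricter subset, members with under 3 of the 42 markers, held 499 WT and 1346 EC-iCD45KO cells, and its values are given beside the main results they bear on.

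WT members more often passed with the fewest rule genes. In WT, 60.4% had UMIs of exactly 2 rule genes, 26.3% of 3 and 10.6% of 4. In EC-iCD45KO, 41.7% had 2, 29.7% had 3 and 18.5% had 4. All 6 rule genes were found in 0.198% of WT and 1.78% of EC-iCD45KO members. The commonest combination in WT was Ccl8 with Ccl12 (388 cells, 19.2%), followed by Mrc1 with Ccl8 (302 cells, 14.9%). In EC-iCD45KO it was Mrc1 with Ccl12 (328 cells, 9.72%), followed by Mrc1, Ccl12 and Fcgr4 (287 cells, 8.5%). The EC-iCD45KO members were also deeper, and the part of depth in these shares was not tested. Just inside the rule, WT members with 2 rule genes and a lead of 1 gene held Mrc1 at 311 CPM, Ccl8 at 782 CPM and Trem2, a lipid receptor of foamy macrophages, at 389 CPM. The same cells in EC-iCD45KO held Mrc1 at 372, Ccl8 at 313 and Trem2 at 348 CPM. Just outside, macrophages whose 2 or more rule genes were tied by another set held Mrc1 at 239 and 252 CPM, Ccl8 at 580 and 244 CPM and Trem2 at 651 and 645 CPM (WT first).

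The rule genes were read as shares of cells with a UMI after each cell was thinned to 1000 UMIs, with smooth muscle droplets as the background that free RNA can give. These droplets (1599 WT, 1236 EC-iCD45KO, median depth 2140 and 2820 UMIs) carried at least 4 smooth muscle markers and under 4 macrophage genes. Mrc1 was found in 36.5% of WT and 40.2% of EC-iCD45KO members (63.1% and 72.5% unthinned), against 1.38% and 2.75% of smooth muscle droplets. Ccl8 was found in 49.5% and 28.9% of members (71.5% and 45.3% unthinned), against 6.13% and 3.16%. Ccl12 was found in 40.5% and 48% (66.7% and 72.8% unthinned), against 2.25% and 2.75%. So Ccl8 was the commonest of these 3 in WT members and Ccl12 in EC-iCD45KO members. Fcgr4 was found in 11.5% and 24.3% (28.5% and 57% unthinned) and Negr1 in 0.989% and 9.06% (2.67% and 23% unthinned). Clec4b1 stood near 10.3% and 10.8% (23.1% and 28.3% unthinned). In smooth muscle droplets Fcgr4, Negr1 and Clec4b1 lay between 0.188% and 0.728%.

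**Figure D1:**
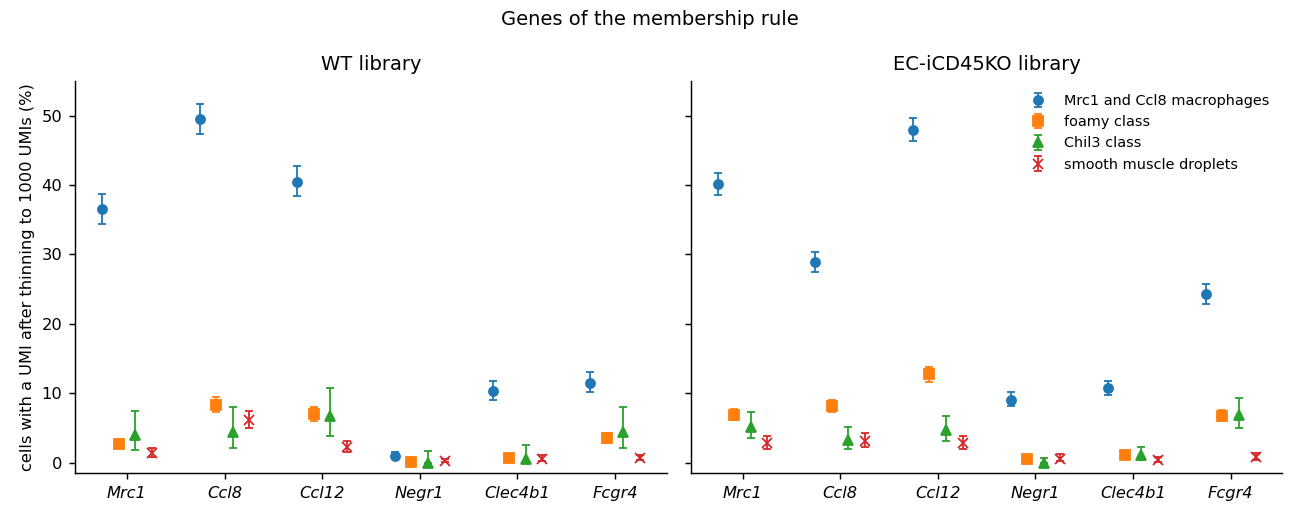
Share of cells with a UMI of each rule gene after thinning to 1000 UMIs (vertical axis, %), in 4 kinds of cell and both libraries; bars are Clopper-Pearson intervals. Ccl8 stands at 49.5% of WT and 28.9% of EC-iCD45KO members, and Negr1 at 0.989% and 9.06%.

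Summed levels gave the same directions for Ccl8, Ccl12, Negr1 and Fcgr4. Ccl8 stood at 1791 CPM in WT and 857 CPM in EC-iCD45KO members, a log2 ratio of EC-iCD45KO over WT of -1.06. Its neighbour Ccl12 stood at 762 and 1122 CPM (0.56), so the gene pair went opposite ways. Negr1 stood at 13.7 and 101 CPM (2.88) and Fcgr4 at 119 and 275 CPM (1.21). Mrc1 was at 586 and 568 CPM (-0.04) and Clec4b1 at 110 and 113 CPM (0.04). Within the stricter subset Ccl8 was at 3057 and 973 CPM (-1.65), Ccl12 at 1087 and 1360 (0.32), Negr1 at 20 and 124 (2.63) and Fcgr4 at 186 and 336 (0.85). Mrc1 was then lower in EC-iCD45KO, at 917 and 669 CPM (-0.46), and so was Clec4b1, at 168 and 127 (-0.40). These ratios rest on genes the rule itself used.

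The label resident-like was checked against genes of resident macrophages, and the answer was mixed. After thinning, Lyve1, a hyaluronan receptor of resident arterial macrophages, was found in 1.04% of WT and 0.444% of EC-iCD45KO members (2.23% and 1.13% unthinned). Smooth muscle droplets held Lyve1 in 1.69% and 0.728%, so it was at background. Timd4, a receptor for phosphatidylserine, was found in 0.247% and 0.711% of members, and the haemoglobin scavenger receptor Cd163 in 0.989% and 0.918%. Folr2, a folate receptor, was found in 4.65% and 3.08% of members but in 8.76% and 7.23% of the foamy class. Cbr2 was found in 6.97% and 4.15% of members and in more smooth muscle droplets, 12.6% and 16.5%. F13a1, the coagulation factor XIII A chain of macrophages, was found in 13.1% and 7.29% of members, against 1.19% and 0.405% of smooth muscle droplets. The chemokine receptor Ccr2, carried by monocyte-derived cells, was found in 9.2% and 17.7% of members, against 1.56% and 1.54%. The MHC class II gene H2-Aa was found in 86% and 91.1%, against 47.8% and 28.1% of smooth muscle droplets. Other genes of the resident list were common in members. Selenop was found in 57.8% and 60.2% of members (78.1% and 83.3% unthinned), against 42.8% and 47.3% of the foamy class and 25.1% and 26.2% of smooth muscle droplets. Pf4 was found in 23.7% and 18.6% (39.4% and 37% unthinned), against 6% and 11.4% of the foamy class and 1.13% and 1.86% of smooth muscle droplets. Stab1, a scavenger receptor, was found in 12.8% and 13.6% (29.7% and 35.4% unthinned), against 7.32% and 9.44% of the foamy class. Since Lyve1, Timd4, Cd163 and Folr2, which define resident macrophages most narrowly, were in few members and Ccr2 was in more, the cells are called here by Mrc1 and Ccl8. Pecam1, the gene of the CD31 protein bound by the beads, was found in 14.9% and 11.3% of members (31.8% and 28.1% unthinned), near the 15.7% and 12.4% of smooth muscle droplets. Dendritic cell markers (8 genes) summed to 80.6 CPM in WT and 79.1 CPM in EC-iCD45KO members, against 58.7 and 43.7 CPM in the foamy class. The 2 that averaged 20 CPM or more had log2 ratios of EC-iCD45KO over WT of 3.62 and -2.66. The dendritic marker Cd209a stood at 4.04 and 71 CPM in members with Mrc1 and no Fcgr4 UMI. In members with UMIs of both it stood at 4.3 and 33.8 CPM.

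**Figure D2:**
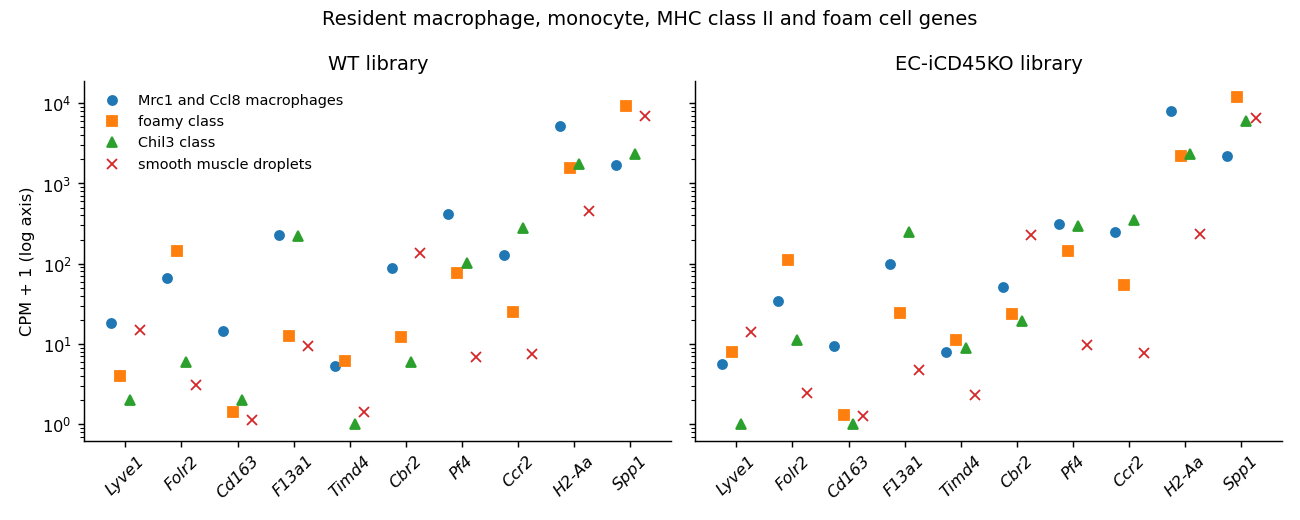
Levels of resident macrophage genes (Lyve1 to Pf4), the monocyte gene Ccr2, the MHC class II gene H2-Aa and the foam cell gene Spp1, as CPM + 1 on a log axis, in 4 kinds of cell and both libraries. Each point is a sum over 1 library; Lyve1 and Timd4 lie low in every class, and H2-Aa is highest in the Mrc1 and Ccl8 macrophages.

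The members were not uniform, and Mrc1 and Fcgr4 split them. Cells with a UMI of Mrc1 and none of Fcgr4 were 952 of the WT members (47.1%) and 1041 of the EC-iCD45KO members (30.8%). Cells with Fcgr4 and no Mrc1 were 254 (12.6%) and 518 (15.3%), cells with both were 323 (16%) and 1406 (41.6%), and cells with neither were 493 (24.4%) and 411 (12.2%). Cells with both were the deepest, with median UMI counts of 4416 and 5436, and cells with neither the shallowest, at 1742 and 1704. The part of depth in the split was not tested. The cells with Mrc1 alone and with Fcgr4 alone were close in median depth, at 2590 and 2319 UMIs in WT and 2156 and 2464 in EC-iCD45KO.

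Several resident macrophage genes, among them F13a1, Folr2 and Pf4, stood higher in the cells with Mrc1 alone. F13a1 stood at 367 CPM in WT cells with Mrc1 alone and at 18.9 CPM in WT cells with Fcgr4 alone. In EC-iCD45KO these values were 177 and 40.6 CPM. Folr2 stood at 107 against 8.28 CPM in WT and 54 against 17.7 CPM in EC-iCD45KO. Lyve1, at background over all members, stood at 33.2 against 1.18 CPM and 12.9 against 1.14 CPM. Pf4, platelet factor 4, which resident macrophages also make, stood at 593 against 96.9 CPM and 391 against 124 CPM. Timd4 stood at 2.18 against 4.73 CPM in WT and at 10.3 against 8.58 CPM in EC-iCD45KO. It had 30 UMIs over all WT members and 102 over all EC-iCD45KO members, too few to read a direction. Igf1 stood at 188 against 134 CPM in WT and at 155 against 154 CPM in EC-iCD45KO. Ccl8, itself a rule gene, stood at 2588 against 473 CPM and 1164 against 371 CPM, which the choice of cells helps to set. Il1b, the cytokine interleukin-1 beta, was higher in the cells with Fcgr4 alone, at 187 against 393 CPM in WT and 515 against 858 CPM in EC-iCD45KO. H2-Aa differed less, at 5282 against 4670 CPM and 6654 against 7576 CPM. The order of the subsets for H2-Aa was thus not the same in the libraries. Fcgr4 is also carried by non-classical monocytes, whose genes in the cells with Fcgr4 alone stood at 8.28 and 9.72 CPM (Treml4), 15.4 and 2.29 CPM (Ear2) and 44.9 and 14.3 CPM (Ace). In the cells with Mrc1 alone they stood at 6.84 and 4.6 CPM (Treml4), 6.21 and 2.87 CPM (Ear2) and 17.7 and 23.9 CPM (Ace). In EC-iCD45KO, Ace therefore stood higher in cells with Mrc1 alone than in cells with Fcgr4 alone, opposite to WT. The Ear2 values in EC-iCD45KO, 2.87 and 2.29 CPM, were too low to order the subsets.

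**Figure D3:**
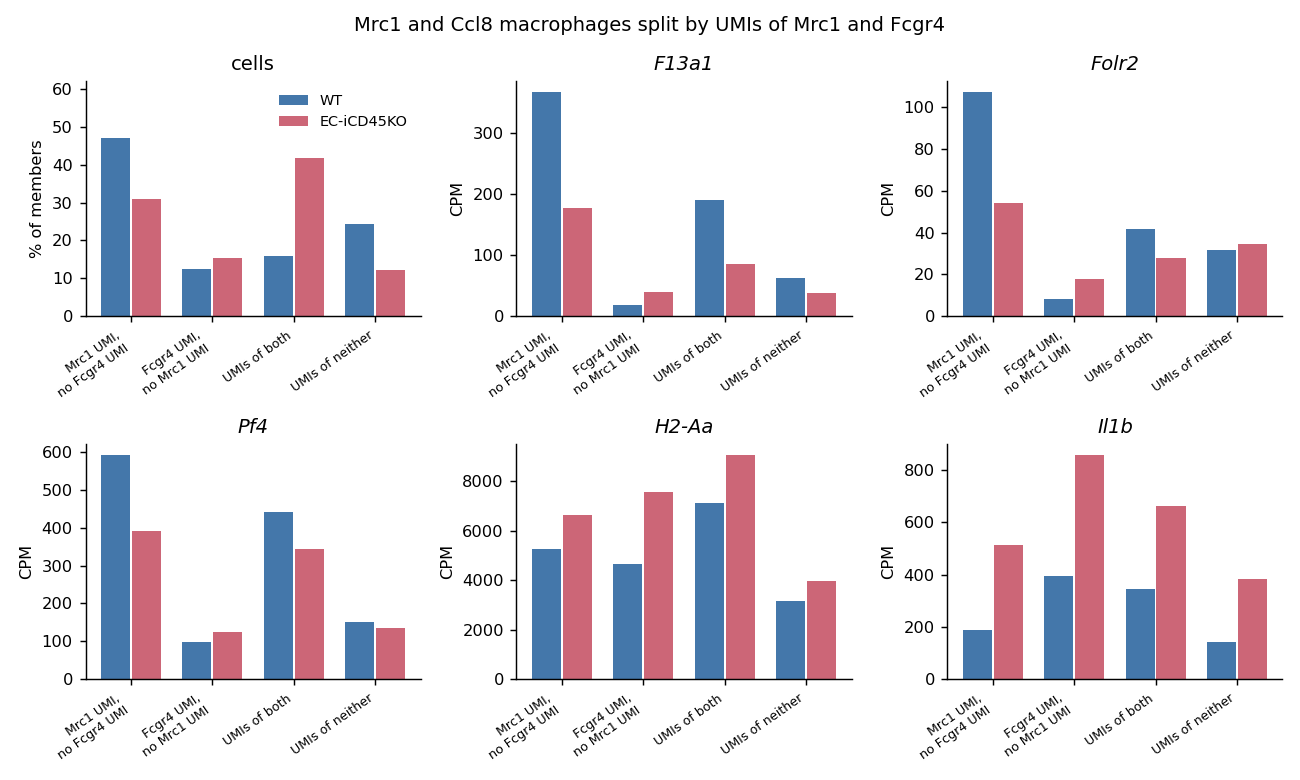
Members split by UMIs of Mrc1 and Fcgr4: their share of members (%) and the CPM of 5 genes in each subset, by library; bars are sums over 1 library and carry no replicate error. F13a1, Folr2 and Pf4 are highest in cells with Mrc1 and no Fcgr4 in both libraries.

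Against the foamy class the members held more antigen presentation genes and fewer foam cell genes. Of 6205 genes that averaged 20 CPM or more, 102 (1.64%) were at least 2-fold higher in members in each library and 81 (1.31%) at least 2-fold lower, rule genes left out. Of 11 measured MHC class II genes, 7 were higher in each library and 0 lower. H2-Aa stood at 5274 CPM in WT members against 1558 in the foamy class, and at 7933 against 2221 in EC-iCD45KO. H2-Eb1 stood at 4725 against 1248 and 7233 against 1731 CPM, and Cd74, the invariant chain that guides MHC class II molecules, at 17196 against 5878 and 23377 against 6899 CPM. The list's median log2 ratio was 1.47 in WT and 1.73 in EC-iCD45KO, beside 0.07 and 0.04 over all genes tested. B cells also make these genes, and B markers stood at 2368 CPM in WT members against 1582 in the foamy class, and at 191 against 181 CPM in EC-iCD45KO. Their part in these ratios was not tested.

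Of 20 foam cell and lipid genes, 12 were lower in members in each library and 0 higher, with medians of -1.24 and -1.20. Spp1, osteopontin, stood at 1689 CPM in WT members against 9304 in the foamy class, and at 2186 against 11834 in EC-iCD45KO. Mmp12, the macrophage elastase, stood at 24.2 against 416 and 34.4 against 277 CPM. Fabp5, a fatty acid carrier, stood at 216 against 1077 and 321 against 1583 CPM. Lpl, lipoprotein lipase, stood at 56.9 against 237 and 52.5 against 216 CPM, and Lgals3, galectin-3, at 707 against 3387 and 993 against 4295 CPM.

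Of 15 resident macrophage genes, 5 were higher in members than in the foamy class in each library and 2 lower, with medians of 1.05 in WT and 0.76 in EC-iCD45KO. The 2 lower genes were Folr2, at 66.3 against 144 CPM in WT and 33.5 against 111 in EC-iCD45KO, and the growth factor Igf1, at 169 against 518 and 129 against 488. F13a1 stood at 229 against 11.6 and 99 against 23.2 CPM, and Clec10a, a galactose lectin, at 72.3 against 5.86 and 64.1 against 15.3 CPM. Its relative Mgl2 stood at 140 against 23.9 and 168 against 56.6 CPM. Ccr2 was also higher in members, at 129 against 24.3 and 248 against 53.3 CPM. Maf, a transcription factor of mature macrophages, stood at 229 against 46.8 and 188 against 57 CPM. C4b, complement component 4, stood at 126 against 22.3 and 108 against 27.6 CPM, and Lifr, the receptor of leukaemia inhibitory factor, at 83.5 against 27.9 and 80.7 against 23.4 CPM.

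Against the Chil3 class, 175 of 6171 genes (2.84%) were at least 2-fold higher in members in each library and 174 (2.82%) lower. This class was small, with 224 and 581 cells. B and plasma markers summed there to 768 CPM in WT and 179 in EC-iCD45KO, smooth muscle markers to 269 and 2157, and fibroblast markers to 803 and 1461, and their part in the comparison was not tested. The gene that ranked first among the higher ones was the immunoglobulin gene Ighg2c, at 1337 against 49.1 CPM in WT and 24.6 against 0.607 CPM in EC-iCD45KO. In members, 1 cell held 5086 of its 9244 WT UMIs and 1 cell held 325 of its 356 EC-iCD45KO UMIs. Of 14 resident macrophage genes, 9 were higher in members and 0 lower. Of 17 monocyte and inflammatory genes, 9 were lower and 0 higher. Ly6c2, a marker of classical monocytes, stood at 72.9 CPM in WT members against 843 in that class, and at 21.7 against 272 in EC-iCD45KO. Plac8 stood at 145 against 1886 and 88.1 against 824 CPM. Fcrls stood at 150 against 7.01 and 166 against 13 CPM in favour of the members. The prostaglandin D synthase Hpgds stood at 119 against 19 and 151 against 20.9 CPM, and the neonatal Fc receptor Fcgrt at 155 against 29 and 152 against 27 CPM.

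Between the libraries, the list of monocyte and inflammatory genes had a positive median log2 ratio of EC-iCD45KO over WT in members (0.87), and the cell cycle list (-0.71), the interferon response list (-0.41) and the resident macrophage list (-0.38) had negative ones. The medians of the other lists of macrophage genes, MHC class II genes included, lay between -0.04 and 0.44. Of 6346 genes that averaged 20 CPM or more, 69 (1.09%) were at least 2-fold higher in EC-iCD45KO members and 128 (2.02%) at least 2-fold lower, with the rule genes Negr1, Fcgr4 and Ccl8 among them. With TMM scaling, whose factors were 1.11 in WT and 1 in EC-iCD45KO members, these counts were 90 and 100. The median log2 ratio over all genes tested was -0.03. In bulk sums of this kind fewer cells of a kind and less RNA per cell cannot be told apart. In the stricter subset 42 of 5901 genes were higher (0.712%) and 56 lower (0.949%). The same shares were 1.05% and 1.81% in the foamy class, 2.32% and 3.23% in the Chil3 class, and 0.773% and 2.74% in smooth muscle droplets.

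**Figure D4:**
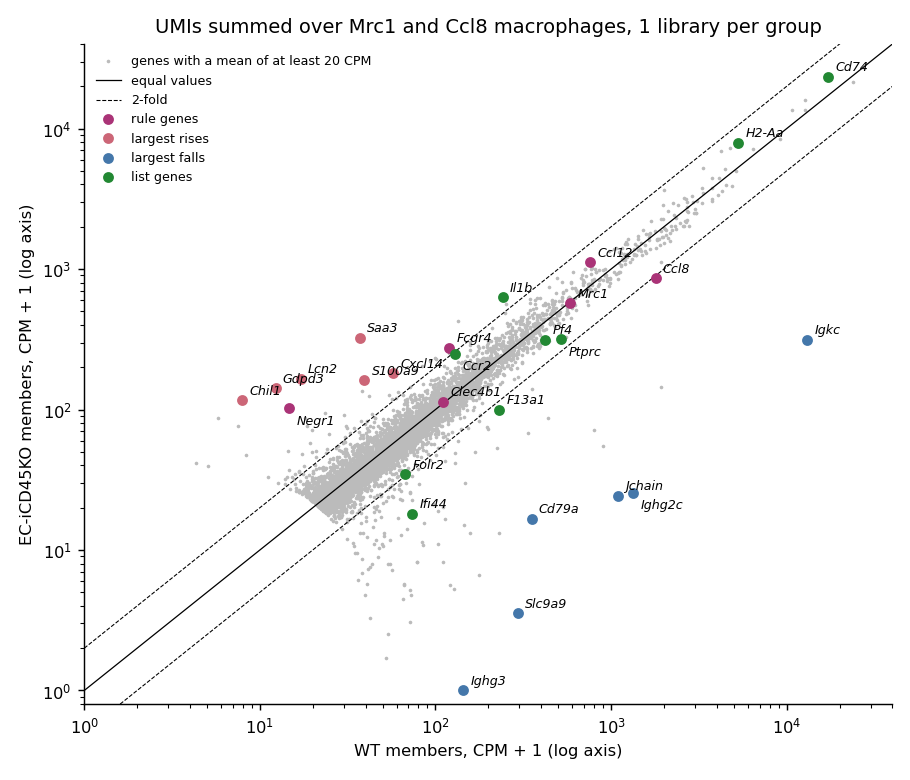
CPM + 1 of UMIs summed over members, WT (horizontal, log axis) against EC-iCD45KO (vertical, log axis); each grey point is a gene that averaged 20 CPM or more and the dashed lines mark 2-fold. Igkc, Jchain and Slc9a9 lie far below the line of equal values, Saa3 and Gdpd3 above it, and most genes lie near it.

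Of 15 measured monocyte and inflammatory genes, 5 were at least 2-fold higher in EC-iCD45KO members and 1 was lower, and the list's median was 0.87. Il1b stood at 241 CPM in WT and 630 in EC-iCD45KO (log2 ratio 1.38). After thinning Il1b was found in 15.2% and 32.9% of members, against 6.75% and 7.69% of smooth muscle droplets. Cxcl1, a neutrophil chemokine, stood at 82.3 and 204 CPM (1.31), and Cxcl2, of the same family, at 1988 and 3644 (0.87). The other higher genes were Hp (29.2 and 90.1 CPM), S100a8 (22.4 and 93.1) and S100a9 (38.3 and 161). S100a8 and S100a9 are also neutrophil genes, 1% of members held 69% of the S100a8, 67.6% of the S100a9 and 70.3% of the Hp UMIs in EC-iCD45KO, and the other 6 neutrophil markers summed to 54.3 CPM in WT and 64.6 CPM in EC-iCD45KO, with 4 and 5 of them detected. Ly6c2 was the lower gene, at 72.9 and 21.7 CPM (-1.75), while Ccr2 stood at 129 and 248 (0.95). In the stricter subset, which removed no cell for neutrophil markers, 4 of 15 were higher and 1 lower, with a median of 0.45. The 4 were S100a8, S100a9 (31.8 and 218 CPM, 2.78), Hp (11.2 and 30.2, 1.43) and Il1b, which at 395 and 791 CPM stood at the 2-fold limit. Cxcl1 was then at 0.69 and Cxcl2 at 0.45 in log2. In the foamy class 7 of 15 were higher and 1 lower, with Il1b at 228 and 310 CPM, and in the Chil3 class 1 of 17 was higher and 3 lower. The class differences were not tested.

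The resident macrophage list leaned the other way. Of 15 measured genes 0 were higher in EC-iCD45KO members and 1 was lower, with a median of -0.38. The lower gene was F13a1, at 229 CPM in WT and 99 in EC-iCD45KO (-1.21, interval -1.32 to -1.11). Folr2 stood at 66.3 and 33.5 CPM (-0.99), Ltc4s, leukotriene C4 synthase, at 66.8 and 34.6 (-0.95), Cbr2 at 86.8 and 49.7 (-0.80) and Pf4 at 419 and 313 (-0.42). Selenop, a selenium carrier, stood at 1358 and 1275 CPM (-0.09) and Mgl2 at 140 and 168 (0.26). In the foamy class the median was 0.17 and F13a1 stood at 11.6 and 23.2 CPM.

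The lean was larger in the stricter subset, where 6 of 16 resident genes were lower in EC-iCD45KO, 0 were higher and the median was -0.85. There Folr2 stood at 97.1 and 37.6 CPM (-1.37), Cbr2 at 115 and 37.8 (-1.61) and F13a1 at 380 and 116 (-1.71). Lyve1, counted among the 6, stood at 35.3 and 4.93 CPM (-2.84) on 60 and 26 UMIs. It reached the 20 CPM minimum only through its WT level, and over all members it was below the minimum and not counted. Over all WT members 79% of its UMIs lay in 1% of the cells. The lectin gene Cd209g stood at 26.5 and 0.759 CPM (-5.13) and rested on 45 and 4 UMIs. Vsig4, a complement receptor of resident macrophages, rested on 13 UMIs in WT and 1 in EC-iCD45KO, too few to read a level. Among members with at least 1% of UMIs in the 9 macrophage genes, 4 of 15 were lower, 0 higher and the median was -0.61, beside 1.58% lower and 1.08% higher of 6127 genes. The share of cells with Mrc1 and no Fcgr4 was 47.1% and 30.8%. Within that subset F13a1 was also lower in EC-iCD45KO, at 367 and 177 CPM, and Folr2 at 107 and 54.

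Of 12 MHC class II genes, 0 were at least 2-fold higher, 3 were lower and the median was 0.38. H2-Aa stood at 5274 and 7933 CPM (0.59), H2-Ab1 at 3353 and 5213 (0.64), H2-Eb1 at 4725 and 7233 (0.61) and Cd74 at 17196 and 23377 (0.44). The 3 lower genes, H2-DMb2 (102 and 17.8 CPM), H2-Oa (49.3 and 9.68) and H2-Ob (62.4 and 11.7), encode accessory chains that B cells make, and B markers were 2368 and 191 CPM. H2-DMb2 was found after thinning in 10.3% and 1.36% of members, near the 9.32% and 1.29% of smooth muscle droplets. In the stricter subset H2-Oa (27.1 and 10.8 CPM, -1.32) and H2-Ob (15.3 and 12.1 CPM, -0.33) fell below the 20 CPM minimum. H2-DMb2 stood there at 34.7 and 18.2 CPM (-0.93). Of the 10 genes still measured, 0 were past 2-fold and the median was 0.28.

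Of 17 interferon response genes, 0 were at least 2-fold higher in EC-iCD45KO members and 4 were lower, with a median of -0.41. The lower genes were Ifi44 (72.6 and 17.1 CPM), Ifit1 (45.4 and 19.6), Ifit3 (78.4 and 36.6) and Rsad2 (61.3 and 27.8). Isg15, a ubiquitin-like modifier, stood at 309 and 215 CPM (-0.52). Bst2, tetherin, went the other way, at 248 and 487 CPM (0.97). The stricter subset gave 5 of 17 lower, 0 higher and a median of -0.55. In the Chil3 class, with 224 WT cells, 15 of 18 were lower with a median of -2.31, and Isg15 stood there at 1065 and 187 CPM. In the foamy class 1 of 12 was higher and 0 lower, with a median of -0.30. Smooth muscle droplets gave 4 of 10 lower and a median of -0.47, close to that of the members.

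**Figure D5:**
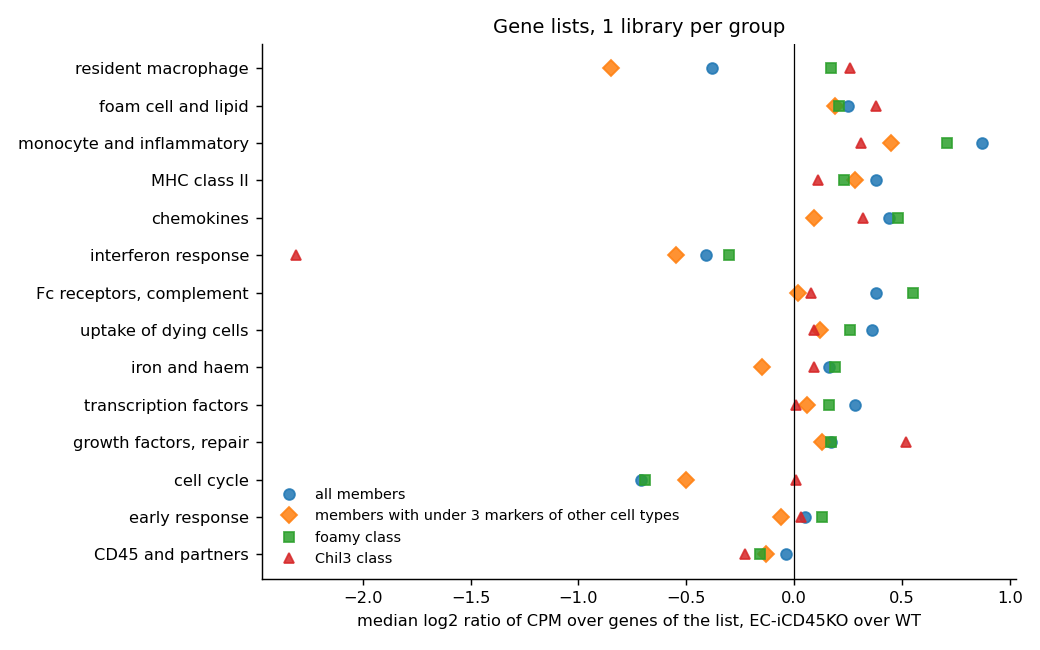
Median log2 ratio of EC-iCD45KO over WT for 14 gene lists (horizontal axis), in members, in members with under 3 markers of other cell types, in the foamy class and in the Chil3 class. The resident macrophage list lies at -0.38 in members and -0.85 in the stricter subset but at 0.17 and 0.26 in the other classes, and the interferon list at -2.31 in the Chil3 class.

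Chemokines and their receptors were mixed, with 2 of 16 higher, 2 lower and a median of 0.44. Cxcl14 stood at 56.3 and 180 CPM (1.67) and the receptor Ccr1 at 39.9 and 81.8 (1.03). Ccl5, which T and NK cells also make, stood at 198 and 71.7 CPM (-1.46), and T and NK markers at 311 and 47.6. Cxcl13, a chemokine that draws B cells, stood at 46.7 and 9.26 CPM (-2.33), with 88.2% of its WT UMIs in 1% of members. Ccl2 and Ccl7, which lie near Ccl8 and Ccl12 on chromosome 11, stood at 343 and 576 CPM (0.75) and 370 and 599 CPM (0.70). So of these 4 neighbours Ccl8 alone was lower in EC-iCD45KO members. In the stricter subset Ccl2 stood at 493 and 615 CPM (0.32), Ccl7 at 542 and 638 (0.23) and Ccl5 at 246 and 84.6 (-1.54), and 3 of 17 list genes were lower with 0 higher and a median of 0.09.

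Foam cell and lipid genes gave 0 of 20 higher and 1 lower (median 0.25). The stricter subset gave 2 of 20 higher and 0 lower, with Spp1 at 500 and 1183 CPM (1.24) and Fabp5 at 160 and 330 (1.05). Genes for uptake of dying cells gave 0 of 13 in either direction (0.36, and 0.12 in the stricter subset), and macrophage transcription factors 0 of 18 (0.28, and 0.06). Mertk, the receptor that binds dying cells, stood at 90.6 and 119 CPM, Spi1, which encodes PU.1, at 285 and 363 CPM, and the flow-responsive factor Klf2 at 555 and 326 CPM (-0.77). Fc receptor and complement genes gave 1 of 17 higher, the lectin Clec4e (16.3 and 47.3 CPM, 1.53), and a median of 0.38. The stricter subset gave 0 of 17 higher and 1 lower, C4b (196 and 95.6 CPM, -1.04), with a median of 0.02. Iron and haem genes gave 1 of 11 higher, the cystine transporter Slc7a11 (18.4 and 57.2 CPM, 1.64), and a median of 0.16 that turned to -0.15 in the stricter subset. Growth factor and repair genes gave 1 of 14 higher, the matrix protein Tgfbi (252 and 561 CPM, 1.16), and 0 of 16 in the stricter subset, where Tgfbi stood at 345 and 633 CPM (0.88). Early response genes, which dissociation can induce, gave 0 of 15 in either direction and a median of 0.05. Of 9 cell cycle genes 2 were lower and 0 higher with a median of -0.71, and Mki67 stood at 50.5 and 29.8 CPM. The stricter subset gave 1 of 6 lower, 0 higher and a median of -0.50, and the rule applied after thinning a median of -0.28. In the foamy class 3 of 9 were lower, with a median of -0.69.

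Ptprc, the gene deleted in endothelial cells of this line, was read in the macrophage classes and smooth muscle droplets. None of these is the cell type of the deletion, so their values do not check the genotype labels. It stood at 520 CPM in WT and 315 CPM in EC-iCD45KO members (-0.72, interval -0.79 to -0.66). The foamy class gave 454 and 221 CPM (-1.04), the Chil3 class 705 and 376 (-0.91 in log2) and smooth muscle droplets 152 and 42.3 (-1.84). Which exons were removed is not given in the sources used here. Ptprc in the stricter subset stood at 533 and 368 CPM (-0.54). Of 11 genes of CD45 and its partners 3 were lower and 0 higher. The lower genes were Ptprcap (77.8 and 7.19 CPM), Ptpn22 (62.5 and 25.3) and Cd22 (33.4 and 9.75), which lymphocytes make. In the stricter subset only 9 genes of the list reached the 20 CPM minimum, and 0 of these were past 2-fold in either direction. List genes below the minimum were not counted there. The Src family kinase Lyn, at 526 and 628 CPM, stayed within 2-fold. Apoe, disrupted in both groups, stood at 21 and 15.6 CPM.

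Among the 10 genes with the highest ratios at a mean of at least 50 CPM, several had most of their UMIs in few members. Chil1 stood at 6.94 CPM in WT and 116 in EC-iCD45KO (log2 ratio 4.07, 3.65 to 4.51), but 80.4% of its EC-iCD45KO UMIs lay in 1% of the members. Lcn2, lipocalin-2, stood at 16.1 and 165 CPM (3.36), with 75.2% of UMIs in 1% of members, and at 396 and 691 CPM in smooth muscle droplets. Saa3, an acute-phase protein, stood at 36.2 and 324 CPM (3.16), with 76.5% of UMIs in 1% of members. Mmp3 stood at 133 and 424 CPM (1.67) and the pericyte gene Rgs5 at 37.3 and 134 (1.85), against 695 and 1681 for Rgs5 in smooth muscle droplets. S100a9, S100a8 and Cxcl14, given above, and the chemokine Ccl19 (17.1 and 85.9 CPM, 2.33) complete the 10 together with Gdpd3, which is described separately. Among the stricter members Rgs5 was at 11.8 and 15 CPM (0.35) and Mmp3 at 18.3 and 28.8 (0.66), within 2-fold. Lcn2 (1.77 and 12.5 CPM, 2.83, interval 1.22 to 5.14), Saa3 (5.3 and 23.3, 2.14), Chil1 (1.77 and 6.07, 1.78, interval 0.10 to 4.13) and Ccl19 (2.94 and 8.16, 1.47) stayed past it on 3 to 9 WT UMIs each. S100a8 (24.7 and 120 CPM, 2.28) and S100a9 (31.8 and 218, 2.78) stayed past it too, and Cxcl14, at 74.8 and 149 CPM, stood at the limit.

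Gdpd3, a lysophospholipase D, was spread more evenly. It stood at 11.3 and 141 CPM (3.64, 3.31 to 3.99), with 11.3% of its EC-iCD45KO UMIs in 1% of members and a UMI in 31.7% of members unthinned, against 3.17% in WT. Gdpd3 in the stricter subset stood at 23 and 160 CPM (2.81), and in smooth muscle droplets at 0.987 and 24.7 (4.65). Negr1 was also spread, with 16% of its EC-iCD45KO UMIs in 1% of members.

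Among the 10 genes with the lowest ratios at that mean, 9 were immunoglobulin or B lineage genes and the other was Slc9a9. Igkc, the kappa light chain, stood at 13090 CPM in WT and 313 in EC-iCD45KO members (-5.39), and at 5970 and 92.4 in smooth muscle droplets (-6.01). Its log2 ratio was -2.87 in the foamy class and -1.20 in the Chil3 class, and 67.4% of its WT UMIs in members lay in 1% of the cells. Ighg2c stood at 1337 and 24.6 CPM (-5.76), with 91.6% of its WT UMIs in 1% of members. Ighg3 stood at 143 CPM in WT and had 0 UMIs in EC-iCD45KO, a log2 ratio of -9.43 or lower with 3 counts as the floor. Cd79a, a chain of the B cell receptor, stood at 352 and 15.7 CPM (-4.49). The stricter subset gave Igkc at 940 and 84.4 CPM (-3.48), Cd79a at 30.6 and 3.04 (-3.33), Ighg2c at 61.2 and 0.949 (-6.01, 104 and 5 UMIs) and Ighg3 at 13 CPM in WT and 0 UMIs in EC-iCD45KO. Jchain, Ighg2b, Mzb1, Iglc2 and Ly6d lay between -5.54 and -4.23. Jchain, Mzb1 and Cd79a belong to the B and plasma markers. The other 5 of those markers summed to 801 and 147 CPM, and the part of B lineage RNA in the other differences was not tested.

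Slc9a9, an endosomal sodium-proton exchanger gene at chr9:94669909-95230445 (GRCm38), stood at 294 CPM in WT and 2.56 in EC-iCD45KO members (-6.84, -7.35 to -6.38). It had a UMI in 42.1% of WT and 0.711% of EC-iCD45KO members unthinned, and in 20.1% and 0.237% thinned, against 4.5% and 0.243% of smooth muscle droplets. The ratio was similar in the stricter subset (420 and 3.23 CPM, -7.02), the foamy class (-6.79) and the Chil3 class (-5.74), and over all barcodes it was -5.85 (114 and 1.98 CPM). In WT the gene stood higher in members than in the foamy class, at 294 against 105 CPM, and higher in cells with Mrc1 alone (401 CPM) than with Fcgr4 alone (156 CPM). Other genes within 2 megabases of Slc9a9 on chromosome 9 were examined, leaving out those with few UMIs over all barcodes. Many of those kept were sparse in members. Their log2 ratios in members ran from -0.71 (Pcolce2, 96 and 123 UMIs) to 0.31 (Trpc1, 15 and 39 UMIs). Of the 3 with the most UMIs, U2surp stood at 108 and 99.5 CPM in members, Atp1b3 at 118 and 118, and Rnf7 at 107 and 107.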

How the data were processed

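The deposited matrices hold UMI counts per gene and barcode, made with Cell Ranger 7.1.0 on mm10, per the submitters' processing notes. Whether intronic reads were counted is not given in the sources used here. The WT library had 39849 barcodes and 92058043 UMIs, the EC-iCD45KO library 30278 and 88967918.

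Membership, the lists and the genes named were chosen with earlier results of these data known. UMIs were summed over cells of a class and library and divided by their total (CPM). Log2 ratios carry exact conditional binomial intervals, levels exact Poisson intervals and shares Clopper-Pearson intervals. Genes needed a mean of 20 CPM. Named genes were the 10 highest and 10 lowest ratios between libraries at a mean of 50 CPM, the 12 highest and 8 lowest against each other class, and any gene of the fixed lists. No p-value was computed. The calculations were tested on simulated data. Gene positions came from GENCODE M21, which matched 32235 of 32285 gene IDs. Scrublet ran in scanpy 1.11.5, intervals in scipy 1.17.1 and tables in pandas 2.3.3 with numpy 2.4.6, all under Python 3.11.15, and plots were drawn with matplotlib 3.10.9. TMM scaling (edgeR 4.0.16, R 4.3.3) served as an alternative. Other alternatives changed the cell filters, rule, thinning, scaling and gene minimum. Some genes of the rule and lists are not reported here.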

Additional observations from a re-analysis of the deposited data

Results flagged for a closer look

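F13a1 went opposite ways in 2 classes of the same libraries. Its log2 ratio of EC-iCD45KO over WT was -1.21 in the Mrc1 and Ccl8 macrophages, while in the foamy class it stood higher in EC-iCD45KO, at 11.6 CPM in WT and 23.2 CPM in EC-iCD45KO. The difference between the classes was not tested, since each group had 1 library.

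The immunoglobulin heavy chain genes Ighg2b and Igha went opposite ways in the members and the Chil3 class, while Ighg2c was lower in EC-iCD45KO in both (-5.76 and -6.34). Ighg2b stood at -4.98 in the members and at 1.31 (interval 0.36 to 2.43) in that class, where it rested on 10 WT and 82 EC-iCD45KO UMIs, and Igha at -3.50 in the members (796 and 70.6 CPM) and at 1.99 in that class (43.1 and 171 CPM). Neither difference was tested, and 82.4% of the WT members' Ighg2b UMIs lay in 1% of the cells.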

How the results depend on the processing

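No paired analysis was possible because WT and EC-iCD45KO were 1 library apiece. The share of macrophages that were members was 7.74 percentage points higher in EC-iCD45KO. It was 6.06 points higher with the rule applied after thinning to 1000 UMIs and 4.33 points higher without cells with 3 markers of other cell types. It was 6.12 points higher among cells with at least 1% of UMIs in the 9 macrophage genes, an alternative chosen after seeing the data. The 69 genes higher and 128 lower in EC-iCD45KO members became 42 and 56 without cells with 3 other markers, and 469 and 823 with no minimum and 0.5 CPM added. The 102 genes higher than in the foamy class became 218 after thinning, 223 without cells with 3 other markers, 61 with TMM scaling, 51 with the mean of single-cell CPM, 315 with no minimum and 159 with the 1% limit. The 175 genes higher than in the Chil3 class became 276 without cells with 3 other markers and 971 with no minimum. The iron and haem list reversed, from a median of 0.16 to -0.15 without cells with 3 other markers. The cause of these shifts was not tested. Of 240 ratios of named genes under alternatives, 142 stayed within the counting interval, 98 moved beyond it and 0 reversed. The cell cycle median of -0.71 became -0.28 after thinning and -0.32 with the mean of single-cell CPM, and the iron and haem median 0.39 with TMM scaling. Of 168 list medians, 150 stayed, 17 moved and 1 reversed. Small shifts counted as stayed, and a sign change from a median near 0 was not counted as a reversal. The early response list, at 0.05 over all members and -0.06 in the stricter subset, was such a case. Without thinning, 24 of 24 shares of cells with a UMI moved.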
